A study of Homo sapiens with 4 samples.

Results

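The genes described here encode the mTOR kinase complexes and the switch that turns complex 1 on: MTOR, MLST8, DEPTOR, RPTOR, AKT1S1, RICTOR, MAPKAP1, TSC1, TSC2 and RHEB. They were read from all probe sets whose only platform gene symbol was one of these 10 names, which gave 28 of the 54675 probe sets on the array and 10 of its 19775 genes. The study compared RNA recovered with immunoprecipitated FMRP, the fragile X protein, with lysate RNA. The cells were a stable FlpIn T-Rex line of human embryonic kidney cells (HEK293). They carried an inducible transgene for FMRP with a Flag and HA tag and were given doxycycline at 1 µg/ml for 16 h. The 2 lysate samples are total RNA collected before the immunoprecipitation, with no antibody. The 2 immunoprecipitate (IP) samples are RNA recovered with the anti-FLAG M2 antibody after washes at 300 mM KCl. The same cell line and induction are given for lysate and IP, and all 4 samples were hybridized to separate Human Genome U133 Plus 2.0 arrays.

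The labels do not say whether replicates came from separate cultures, or whether a lysate and an IP of the same number came from 1 culture, so p-values measure the spread between these samples, which may be technical. The series holds no mock IP, and RNA recovered without FMRP was not measured. The tagged FMRP came from a transgene in 1 stable line, and the labels do not say whether that line is a clone. FMR1 itself, at a probe set that can cross-hybridize, changed by -0.42 (IP minus lysate, log2; limma adjusted p = 0.0261), a call lost when either lysate array (-0.35 and -0.49) or the second IP array (-0.29) was left out. Of 8 genes typical of this cell line, 6 lay above the median signal of all probe sets, and NEFM and SOX11 lay below it. Of 9 markers of blood, endothelial, liver, glial, muscle and islet cells, 3 (PECAM1, HBB and GFAP) lay above that median. The highest group mean among them was 5.87, and their summed log2 signal was 36.2 to 37.6 on the lysate arrays and 39.5 to 40.1 on the IP arrays. The summed signal of the 8 genes typical of the line was also higher in the IP. It was 62.4 to 63.2 on the lysate arrays and 64.8 to 65.3 on the IP arrays. The part of these differences in the results was not tested.

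MTOR is a large protein kinase that promotes protein synthesis and restrains autophagy when nutrients and growth factors are present. It works in a pair of complexes: complex 1 (mTORC1) contains RPTOR and AKT1S1, complex 2 (mTORC2) contains RICTOR and MAPKAP1, and both contain MLST8 and can bind DEPTOR. The small GTPase RHEB activates mTORC1 at the lysosome, and the TSC1-TSC2 complex switches RHEB off by stimulating its GTP hydrolysis. Loss of TSC1 or TSC2 causes tuberous sclerosis, and raised mTOR signalling has been described in fragile X models.

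Values are log2 probe set signals as the authors deposited them, so a difference of 1 is a 2-fold difference. A probe set was tested where its mean over the 4 arrays reached the median of all probe sets (4.70). Each gene was represented by its tested probe set with the highest mean, chosen without regard to the groups. "Called" means a Benjamini-Hochberg adjusted p of at most 0.05 in a limma fit over all 13157 genes or, where a single probe set is named as such, over all 27281 tested probe sets. All 10 genes had a tested probe set. Of the 10 genes, 4 were called higher in the IP (MTOR, RPTOR, TSC1 and TSC2), 3 were called lower (AKT1S1, RICTOR and RHEB), and 3 were not called (MLST8, DEPTOR and MAPKAP1). Over all genes tested, 63.9% were called, 35.0% higher and 28.8% lower, so both shares among these genes were near the background. The IP arrays lay on 1 side of both lysate arrays for all 10 representative probe sets, against 82.3% of all genes. The members' changes ran from -1.34 to 2.64 with a median of 0.07, against a median of 0.08 and an interquartile range of -0.48 to 0.61 over all genes. A change is read on the scale the authors gave the arrays, and the RNA recovered per IP is not known from it. The spiked hybridization controls were brighter by 0.48 in the IP samples. Centring the arrays on them took the median over genes to -0.40, with 15.9% of genes higher and 48.5% lower, and left 3 members higher and 5 lower.

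**Figure D1:**
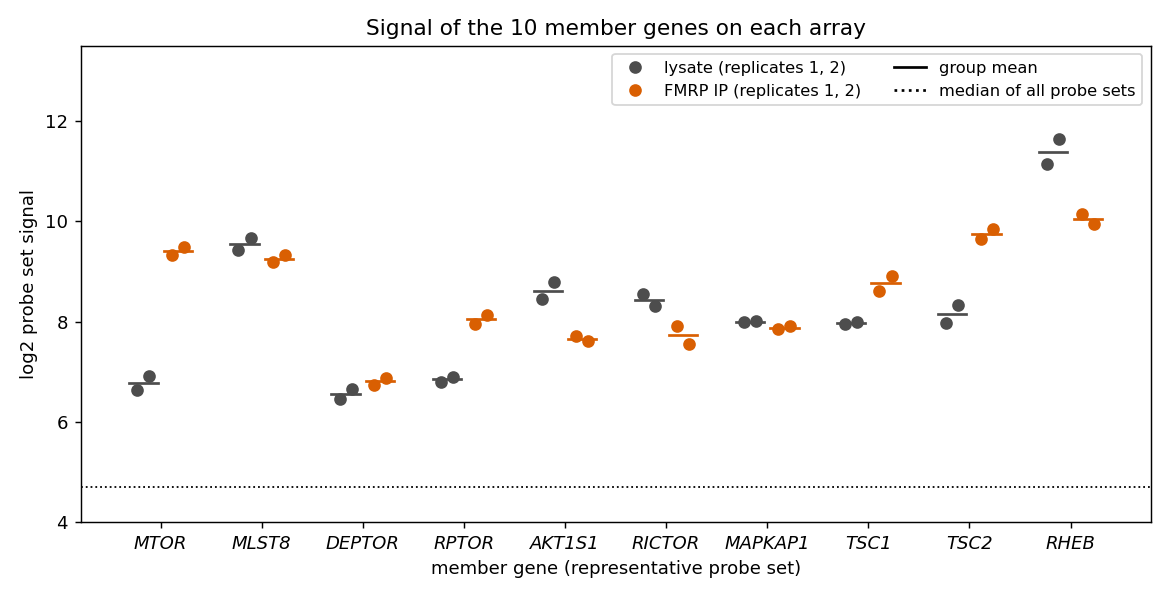
Log2 probe set signal (vertical axis) of the representative probe set of each of the 10 genes, with 1 point per array, a bar at the mean of the 2 arrays of a group, and a dotted line at the median of all probe sets (4.70). The IP points lie above the lysate points for MTOR, DEPTOR, RPTOR, TSC1 and TSC2 and below them for the other 5 genes, and heights of different genes are not comparable because probe sets differ in brightness.

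MTOR, the kinase shared by both complexes, had the largest change of the 10. Its probe set 202288_at read 6.64 and 6.92 on the lysate arrays and 9.34 and 9.49 on the IP arrays. The IP arrays were close together and lay more than 2 log2 units above the higher lysate array. The mean rose from 6.78 ± 0.20 to 9.41 ± 0.11 (SD, n = 2 each), a 6.22-fold difference (log2 change 2.64, SE 0.14, 95% interval 2.31 to 2.96; limma adjusted p = 3.44e-05). MTOR stood at rank 11 of 13157 genes by change. It was called higher under all 14 alternative settings tried, with a change between 2.16 and 2.77. The other MTOR probe set, 215381_at, was dim, at 4.75 and 4.45 in the lysate and 4.16 and 4.53 in the IP. These groups overlapped, and the probe set fell below the filter and was not tested. The rise of MTOR therefore rests on 1 probe set.

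MLST8, a WD-repeat subunit bound to the kinase domain in both complexes, did not follow MTOR. Its only probe set, 220587_s_at, read 9.42 and 9.68 in the lysate and 9.19 and 9.33 in the IP. Both IP arrays were lower than both lysate arrays. However, the higher IP array was nearer to the lower lysate array than the lysate arrays were to each other. The change was -0.29 (95% interval -0.61 to 0.02; limma adjusted p = 0.0924). MLST8 was called lower with hybridization control centring (-0.77), and with the stricter filter on low signals and the intensity trend at the same change of -0.29.

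DEPTOR binds the kinase and inhibits it. Its tested probe set 218858_at read 6.46 and 6.65 in the lysate and 6.74 and 6.88 in the IP. The IP arrays were the higher ones, with a change of 0.25 (95% interval -0.04 to 0.55; limma adjusted p = 0.115) that did not pass and took the opposite sign with hybridization control centring (-0.22, adjusted p = 0.191). Its other probe set, 234071_at, had a mean of 2.54 over the 4 arrays, far below the filter.

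RPTOR is the scaffold that recruits substrates to mTORC1. Its single probe set 225715_at read 6.81 and 6.90 in the lysate and 7.96 and 8.13 in the IP. The groups were separated by about 1 log2 unit and each was tight. RPTOR rose 2.29-fold in the IP (6.85 ± 0.06 to 8.05 ± 0.12, SD, n = 2 each; log2 change 1.20, 95% interval 0.91 to 1.48; limma adjusted p = 1.09e-04). The call held under all 14 alternatives, with a change between 0.72 and 1.28.

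AKT1S1 encodes PRAS40, an inhibitor of mTORC1 that AKT phosphorylates, and it went the other way. Probe set 224982_at read 8.45 and 8.79 in the lysate and 7.71 and 7.61 in the IP. It was 1.95-fold higher in the lysate (log2 change -0.96, SE 0.14, 95% interval -1.30 to -0.62; limma adjusted p = 6.84e-04). The second probe set, 1555821_a_at, read 5.91 and 6.15 in the lysate and 5.45 and 5.39 in the IP, and was also called lower (-0.61; limma adjusted p over probe sets = 0.00675). Both AKT1S1 probe sets thus had every IP array below every lysate array. The subunits that define mTORC1 were in this way called in opposite directions.

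RICTOR, the scaffold that defines mTORC2, was lower in the IP. Its brightest probe set 226312_at read 8.55 and 8.32 in the lysate and 7.91 and 7.55 in the IP. The groups did not overlap, and the IP arrays differed from each other by more than the lysate arrays did. RICTOR was 1.63-fold higher in the lysate (8.44 ± 0.16 against 7.73 ± 0.25, SD, n = 2 each; log2 change -0.71, 95% interval -1.08 to -0.34; limma adjusted p = 0.00506). Each IP array against the lysate mean gave -0.53 and -0.89. In the fit over probe sets the call was lost without lysate replicate 1 (-0.59, adjusted p = 0.057), while in the fit over genes it held with each array left out.

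The other RICTOR probe sets varied. Probe set 226310_at read 6.01 and 5.82 in the lysate and 4.49 and 4.47 in the IP, a change of -1.44 (limma adjusted p over probe sets = 1.6e-04). The IP values lie under the median of all probe sets, where the floor of the signal is unknown, and a fold is therefore left out. This probe set passed the filter only through its lysate signal. Probe set 228248_at read 6.38 and 6.36 in the lysate and 6.41 and 5.97 in the IP; these groups overlapped and the change of -0.18 did not pass (adjusted p = 0.375). Probe set 1552734_at, with a mean of 3.34, was not tested. None of the tested RICTOR probe sets was called higher.

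MAPKAP1 encodes SIN1, the mTORC2 subunit that helps position AKT for phosphorylation. It was not called, and its probe sets differed. The representative probe set 217808_s_at read 8.00 on both lysate arrays and 7.85 and 7.91 on the IP arrays, a change of -0.12 (95% interval -0.38 to 0.15; limma adjusted p = 0.384). The next 2 were similar, at 0.01 for 222426_at and -0.17 for 229845_at. The dimmest, 229846_s_at, read 6.33 and 6.73 in the lysate and 5.81 and 5.40 in the IP, and was called lower (-0.92; limma adjusted p over probe sets = 0.00529). With the mean of its probe sets MAPKAP1 was called lower at -0.30 (adjusted p = 0.0429), and with hybridization control centring at -0.60.

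TSC1 encodes hamartin, which stabilizes TSC2. Its single probe set 209390_at read 7.95 and 7.99 in the lysate and 8.62 and 8.92 in the IP. TSC1 rose 1.74-fold (7.97 ± 0.03 to 8.77 ± 0.21, SD, n = 2 each; log2 change 0.80, 95% interval 0.48 to 1.12; limma adjusted p = 0.00131). With hybridization control centring the change was 0.32 and did not pass (adjusted p = 0.0833).

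TSC2 encodes tuberin, the subunit whose GAP domain acts on RHEB. Probe set 215735_s_at read 7.98 and 8.33 in the lysate and 9.65 and 9.85 in the IP. TSC2 rose 3.02-fold (8.15 ± 0.25 to 9.75 ± 0.14, SD, n = 2 each; log2 change 1.59, 95% interval 1.24 to 1.95; limma adjusted p = 8.29e-05), the largest rise of the 10 genes after that of MTOR. The call held under all 13 alternatives that could be computed, with a change between 1.12 and 1.77. The alternative that used only probe sets with the plain suffix _at could not be computed, since no such TSC2 probe set was tested. A second probe set, 215624_at, was below the filter, at 4.25 and 4.44 in the lysate and 3.28 and 4.26 in the IP. These groups overlapped, with a change of -0.58. The rise of TSC2, like that of MTOR, rests on 1 probe set.

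RHEB, the GTPase that TSC2 acts on, had the largest fall of the 10. Its brightest probe set 201453_x_at read 11.14 and 11.63 in the lysate and 10.14 and 9.94 in the IP. The signal was 2.54-fold higher in the lysate (11.39 ± 0.35 against 10.04 ± 0.14, SD, n = 2 each; log2 change -1.34, 95% interval -1.76 to -0.93; limma adjusted p = 3.68e-04). The suffix _x_at marks a probe set that can cross-hybridize with other transcripts. RHEB has 9 probe sets on the array, more than any other member, so the fall could be followed across them.

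Of the 9 RHEB probe sets 7 were tested, and 5 of these were called lower and none higher. Of these 5, 213409_s_at and 201452_at passed the filter only through their lysate signal. Over all tested probe sets 59.5% were called, 28.0% lower and 31.5% higher; the RHEB probe sets share their target and are not independent. Probe set 1555780_a_at read 9.42 and 9.37 in the lysate and 7.69 and 7.71 in the IP, the steepest RHEB change (-1.70; limma adjusted p over probe sets = 1.14e-04). Probe set 213404_s_at read 10.09 and 10.42 in the lysate and 8.73 and 8.64 in the IP (-1.57). These bright probe sets fell by a similar amount on both IP arrays.

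The dimmer RHEB probe sets were less uniform. Probe set 213409_s_at went from 6.09 and 5.94 to 4.51 and 4.45 (-1.54), and 201452_at from 5.24 and 5.48 to 4.59 and 4.44 (-0.85), both called and both ending below the median signal. Probe set 227633_at read 7.57 and 7.44 in the lysate and 7.22 and 7.24 in the IP, and its change of -0.28 did not pass (limma adjusted p over probe sets = 0.091). Probe set 241795_at overlapped between groups (-0.17, adjusted p = 0.448). The 3 tested probe sets with the plain suffix _at changed by -0.85 to -0.17 with 1 called, and the 4 with other suffixes by -1.70 to -1.34 with all called. These 4 carry the suffixes _x_at, _s_at or _a_at, and the part of cross-hybridization in their changes was not tested. Represented by 227633_at, its brightest plain probe set, RHEB was not called (-0.28, adjusted p = 0.0897). That choice left out 1555780_a_at as well as the _s_at and _x_at probe sets. The 2 untested probe sets were lower on both IP arrays than on either lysate array, at changes of -0.45 and -0.83.

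**Figure D2:**
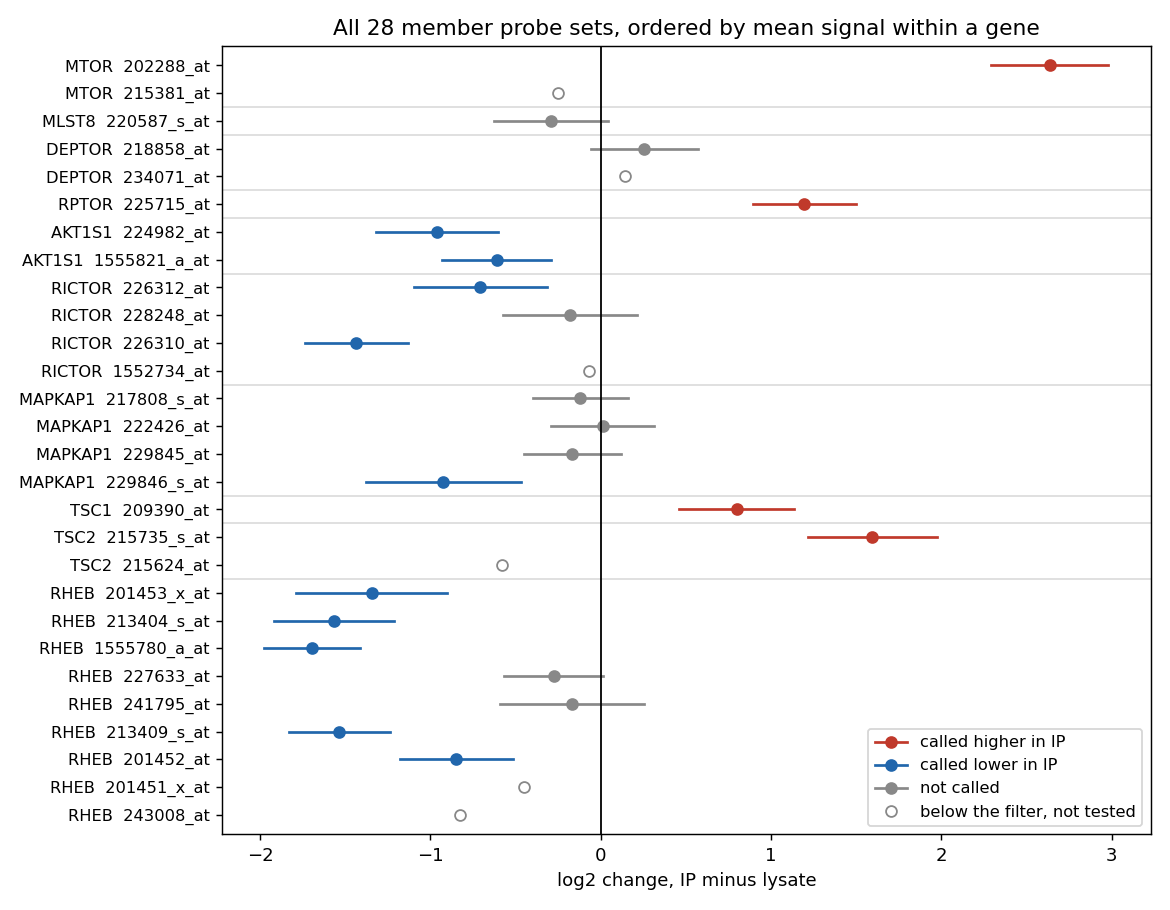
Log2 change, IP minus lysate (horizontal axis), of the 28 probe sets, grouped by gene and ordered by mean signal within a gene; bars are 95% intervals from the fit over probe sets, and open points are the 6 untested probe sets. The 4 probe sets called higher belong to 4 genes, while the 10 called lower belong to RHEB (5), AKT1S1 (2), RICTOR (2) and MAPKAP1 (1).

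Over all members, 22 probe sets were tested, 4 were called higher, 10 lower and 8 neither, against 31.5% higher and 28.0% lower over all tested probe sets. Of the 10 called lower, 5 belong to RHEB and share its transcript. RHEB probe sets 213409_s_at and 201452_at and RICTOR probe set 226310_at passed the filter only through their lysate signal. The IP arrays lay on 1 side of both lysate arrays for 19 of the 22; over all tested probe sets this held for 80.2%. The 6 below the filter had means of 2.54 to 4.68. Of the members, only AKT1S1, RICTOR, MAPKAP1 and RHEB had 2 or more tested probe sets, and none of them had probe sets called in both directions. This occurred in 298 of the 6246 genes with 2 or more tested probe sets (4.8%). The share was 2.3% of genes with 2 tested probe sets, 5.8% with 3, 10.4% with 4 and 40.0% with 7. Among genes with as many tested probe sets, the range of change within a gene was 1.25 for RICTOR against a median of 0.65 for 3 probe sets, 0.94 for MAPKAP1 against 0.85 for 4, 1.53 for RHEB against 1.45 for 7, and 0.35 for AKT1S1 against 0.38 for 2.

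Changes of partner proteins' mRNAs can be set against each other within an array, a comparison that no shift of a whole array affects. RPTOR minus RICTOR was -1.75 and -1.43 on the lysate arrays and 0.05 and 0.58 on the IP arrays, a difference of 1.90 between the scaffold mRNAs of mTORC1 and mTORC2. MTOR minus RHEB went from -4.50 and -4.72 to -0.80 and -0.45, a difference of 3.98. TSC2 minus RHEB went from -3.16 and -3.31 to -0.50 and -0.09, a difference of 2.94. MTOR minus MLST8 went from -2.78 and -2.76 to 0.15 and 0.16, a difference of 2.93. TSC2 minus TSC1 moved less, from 0.03 and 0.34 to 1.03 and 0.93, a difference of 0.80. The lysate and IP values of the 5 pairs did not overlap, which largely follows from the changes given above and is no separate result. Representative probe sets did not overlap for 82.3% of all genes, and the share over all gene pairs was not computed. The 2-sided exact permutation p was 0.3333 for each pair, the smallest that 2 against 2 arrays can give. The level of such a difference on 1 array has no meaning, since probe sets differ in brightness.

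**Figure D3:**
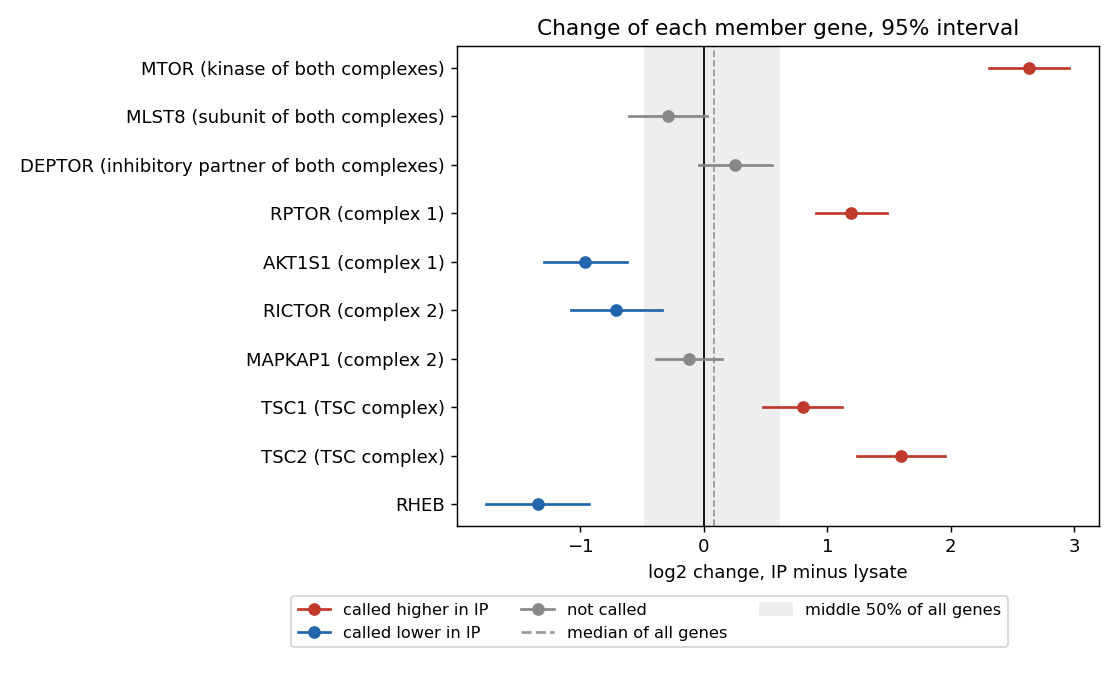
Log2 change, IP minus lysate (horizontal axis), of the 10 genes in order of their roles, with 95% intervals from the limma fit over genes; the grey band is the interquartile range of all genes (-0.48 to 0.61) and the dashed line their median (0.08). MTOR (2.64), TSC2 (1.59), RPTOR (1.20) and TSC1 (0.80) lie to the right of the band, and RHEB (-1.34), AKT1S1 (-0.96) and RICTOR (-0.71) to its left.

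The genes whose values over the 4 arrays were most like those of MTOR, by Euclidean distance after subtraction of each gene's lysate mean, were JPH3 (distance 0.13, change 2.64), PTPRB (0.17, change 2.71) and MCAM (0.20, change 2.52). The PTPRB lysate mean of 3.76 lies below the median signal, so its probe set passed the filter only through the IP arrays. MCAM changed by 0.13 with plain-suffix probe sets and by 1.32 with the mean of its probe sets, and JPH3 by 1.18 with its lowest-numbered probe set and by 1.45 with the mean. Those most like RHEB were PMS2P3 (0.07, change -1.37), RRAS (0.10, change -1.29) and TAPBP (0.10, change -1.32). With the mean of probe sets PMS2P3 changed by -0.86 and TAPBP by -0.73.

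The wider pathway was read from 6 lists with 96 genes, of which 85 were tested. Of these 35 were called higher and 25 lower, 41.2% and 29.4%, with a median change of 0.22. These shares were near the 35.0% and 28.8% of all genes. With hybridization control centring 14 were higher and 37 lower, against 15.9% and 48.5% of all genes. Of the 11 untested genes, DDIT4L, RRAGB and PDCD4 lay below the filter. Lists divided further into named complexes below were divided after their values were seen.

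Among 10 accessory and assembly factors, 4 were higher, 2 lower and 4 not called (median 0.26), or 40.0% higher and 20.0% lower against 35.0% and 28.8% of all genes. TELO2 and TTI1 encode parts of the TTT complex, a co-chaperone that helps mTOR and related kinases fold. TELO2 rose from 7.81 ± 0.08 to 8.79 ± 0.01 and TTI1 from 8.79 ± 0.08 to 9.63 ± 0.13 (SD, n = 2 each; limma adjusted p = 2.11e-04 and 6.68e-04). TTI2, the remaining TTT gene, named after its value was seen, was not called (0.22, limma adjusted p = 0.195). FKBP1A, which encodes the protein that binds rapamycin to inhibit mTORC1, fell from 11.01 ± 0.15 to 9.11 ± 0.31 (log2 change -1.90), and its 3 other tested probe sets changed by -3.06 to -0.94. TBC1D7, the third subunit of the TSC complex, was lower at -0.45 where TSC1 and TSC2 rose; its call was lost without lysate replicate 2 (-0.41, adjusted p = 0.0535), which left 1 lower gene in this list. With hybridization control centring 2 of the list were higher and 3 lower.

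Of 14 growth factor, PI3K and AKT input genes tested, 10 were higher and 1 lower (median 0.56), or 71.4% and 7.1% against 35.0% and 28.8% of all genes. The 4 genes for insulin and IGF receptors and IRS adaptors in the list (INSR, IGF1R, IRS1 and IRS2) were higher, with changes of 0.92 to 1.62. Other genes of these families were not read. INSR, the insulin receptor, rose from 9.50 ± 0.00 to 11.13 ± 0.06 (3.08-fold; limma adjusted p = 3.5e-05), with 4 other probe sets at 1.03 to 1.77. IRS1 rose 2.42-fold. MAPK3, encoding the kinase ERK1, was the lower gene at -0.36, a call lost without lysate replicate 2 (-0.28) or IP replicate 1 (-0.30). With hybridization control centring the list had 5 higher and 4 lower genes.

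Of 15 energy and stress inputs tested, 3 were higher and 10 lower (median -0.45), or 20.0% and 66.7% against 35.0% and 28.8% of all genes. The lower genes numbered 6 without lysate replicate 1 and also 6 at an adjusted p threshold of 0.01. AMPK is the kinase that senses low energy and activates TSC2. Of the 6 subunit genes in the list, 5 were lower and 1 was not called. PRKAA1 was called lower at -0.70, but its other tested probe sets changed by -0.14 and 0.14. PRKAB1, the gene not called, changed by 0.21, and its other tested probe set by -0.73. PRKAG1, a nucleotide-binding subunit, fell from 9.20 ± 0.12 to 7.85 ± 0.09 (2.54-fold higher in the lysate; limma adjusted p = 7.49e-05), and PRKAB2 changed by -1.05. STK11, encoding LKB1, which activates AMPK, was higher at 0.79, and HIF1A at 0.57; neither passed with hybridization control centring (0.31 and 0.09), where none of the list was higher and 11 were lower.

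Among 14 genes for GATOR, KICSTOR and amino acid sensors, which report amino acids to the Rag GTPases, 4 were higher and 2 lower (median 0.23), or 28.6% and 14.3%, both below the 35.0% and 28.8% of all genes. WDR59 and WDR24 encode partners in GATOR2. WDR59 rose 6.07-fold, from 8.08 ± 0.05 to 10.69 ± 0.11, and ranked just after MTOR at 12 of all genes, with its other probe set at 0.65. WDR24 rose 2.89-fold. SEH1L, a further GATOR2 subunit that is also a nucleoporin, was lower at -1.15, and the KICSTOR gene KICS2 at -1.06. With hybridization control centring 2 of the list were higher and 4 lower.

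Of 10 tested genes for Rag GTPases, Ragulator and folliculin, which bring mTORC1 to the lysosome, 3 were higher and 5 lower (median -0.29), or 30.0% and 50.0% against 35.0% and 28.8% of all genes. All 4 tested genes of Ragulator, the lysosomal anchor of the Rags, were lower, with changes of -2.43 to -1.23. LAMTOR5 fell from 10.33 ± 0.11 to 7.90 ± 0.18 (5.40-fold higher in the lysate; limma adjusted p = 3.44e-05) and LAMTOR3 changed by -1.75. FLCN, encoding folliculin, read 5.32 and 5.96 in the lysate and 6.85 and 7.48 in the IP (1.53), with its other probe set at 0.40. RRAGA was higher at 0.71 and did not pass with hybridization control centring (0.23), where 1 of the list was higher and 6 were lower.

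Of 22 substrates and outputs, 11 were higher and 5 lower (median 0.32), or 50.0% and 22.7% against 35.0% and 28.8% of all genes. EIF4E, the cap-binding protein that mTORC1 frees for translation, fell from 9.79 ± 0.09 to 7.13 ± 0.28 (6.35-fold higher in the lysate; limma adjusted p = 3.44e-05), with 2 other probe sets at -1.70 and -1.54. Both 4E-BP repressor genes in the list were lower, at -1.53 for EIF4EBP2 and -1.26 for EIF4EBP1, the second named after its value was seen. LPIN1, encoding a lipid phosphatase, and GRB10, an adaptor that mTORC1 phosphorylates, rose 2.62-fold and 2.52-fold. With hybridization control centring the list had 4 higher and 9 lower genes.

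**Figure D4:**
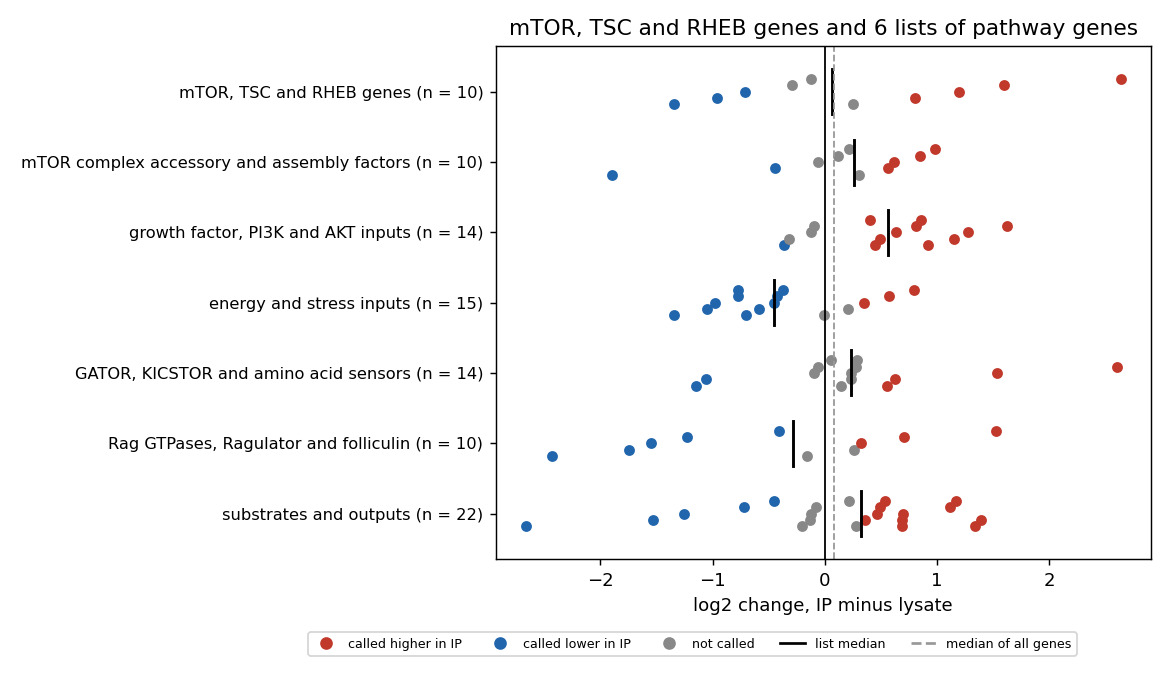
Log2 change, IP minus lysate (horizontal axis), of each tested gene of the 10 members and of the 6 pathway lists, coloured by call; black bars are list medians and the dashed line is the median of all genes (0.08). List medians run from -0.45 for energy and stress inputs to 0.56 for growth factor, PI3K and AKT inputs, and MTOR (2.64) and WDR59 (2.60) are the points farthest to the right.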

How the data were processed

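The members and gene lists were chosen with earlier results of these data known. The values are log2 signals per probe set as the authors deposited them, with array medians between 4.67 and 4.71; the log2 scale was inferred from the values, and the authors' summary and normalization steps were not given in the sources used here. With 4 arrays, their number limits the precision. Gene symbols came from the platform annotation (41091 probe sets with 1 symbol, 1801 with several, 11721 with none), updated through the Entrez number for 41037; no probe set with several symbols included a member. Pathway genes without a tested probe set were left out.

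The IP arrays were compared with the lysate arrays in limma 3.58.1 (R 4.3.3, functions lmFit and eBayes, with 2 residual degrees of freedom and no covariate) over 27281 probe sets and over 13157 genes, with Benjamini-Hochberg adjustment. The fit was tested on simulated data in which few probe sets were shifted. That setting differs from these data, where 59.5% of tested probe sets were called. All 10 member genes were named, and per pathway list up to 2 called genes with the largest rise and 2 with the largest fall whose groups do not overlap. Alternatives changed the scaling, filter, threshold, spread estimate or choice of probe set, used the replicate number as a block, or left out 1 array. Protein lengths were planned as a description and not used here.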

Additional observations from a re-analysis of the deposited data

How the results depend on the processing

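The calls of MTOR, RPTOR, AKT1S1, RICTOR and TSC2 held under every alternative computed in the fit over genes; those of TSC1 and RHEB were each lost under 1, and MLST8 and MAPKAP1 gained a call under 3 and 2. Hybridization control centring gave 3764 higher and 13171 lower probe sets, 17 lower member probe sets, 2090 higher and 6385 lower genes, 5 lower member genes and 14 higher pathway genes, and turned MAPKAP1 probe set 222426_at to a called -0.47. A filter at the 75th percentile tested fewer probe sets and called 5723 higher and 4827 lower, with 6 lower members. Genes represented by plain-suffix probe sets gave 23 higher pathway genes. With any array left out, 4 member genes were higher and 3 lower, and lower member probe sets numbered 9 to 10. Replicate 1 minus 2 in the lysate correlated at 0.06 with that in the IP over the tested probe sets. This value cannot show whether arrays of the same number share a culture. With the replicate number as a block, 4730 genes were higher and 3868 lower, with 4 and 3 member genes. Low signals have no known floor, which limits changes that end near the median of the arrays.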
